A study of Mus musculus with 4 samples.

Results

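The levels of 10 genes of the mammalian circadian clock were followed through 4 RNA-seq libraries of mouse lung. They were taken from the deposited count table by gene symbol, as 10 of its 41079 genes, and all 10 reached at least 10 counts in some library. Of these, 7 are output genes, Dbp, Tef, Hlf, Nr1d1, Nr1d2, Per2 and Per3. The other 3, Npas2, Clock and Nfil3, are described as opposite-phase genes. The list was chosen by the levels of these genes in the same 4 libraries, so their values are given as a description and no test was made on them.

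Each library represents whole lung of a single group, namely normal wild type (WT), normal Rab44-knockout (KO), ovalbumin (OVA)-induced WT or OVA-induced Rab44-KO mice, abbreviated to normal WT, normal KO, OVA WT and OVA KO from here on. The knockout disrupts Rab44, a large Rab GTPase, and was made by genome editing with CRISPR/Cas9 in C57BL/6 mice, and all animals were female littermates of 8 to 14 weeks. For sensitization, OVA-induced mice were given 100 μg of OVA in alum intraperitoneally on days 0, 7 and 14, followed by 100 μg of OVA in a volume of 50 μL through the nose daily from day 17 to day 20, and the lungs were collected on day 21. Normal mice are labelled as untreated, but the shared protocol also speaks of PBS, and how many mice contributed to a library is not given in the sources used here. The hour of the day at which lungs were taken is not given either. If it differed between libraries, hour and condition cannot be told apart.

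In the clock, the activators CLOCK or NPAS2 pair with BMAL1 and bind E-boxes in the genes of their own repressors, the PER and CRY proteins, and in output genes. Among those outputs are the nuclear receptors REV-ERBα and REV-ERBβ, encoded by Nr1d1 and Nr1d2, which repress Bmal1, Npas2, Clock and Nfil3 through ROR response elements (ROREs), and the PAR bZIP factors DBP, TEF and HLF, which activate genes through D-boxes that the repressor NFIL3 also binds. Output genes and genes repressed by REV-ERB therefore peak at different times of day in most tissues, the lung included.

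The RefSeq promoter windows of GRCm38.p6, each running from 250 bases before a start site to 50 bases past it, covered 9 of the 10 genes in 12 windows. They were searched on both strands for the E-box CACGTG, the E-prime box CACGTT, the D-box TTANGTAA, the RORE core AGGTCA and a longer RORE with its flank, which can overlap the core. At least 1 match was found in 6 genes, and the matched stretches are printed to show where these letters lie. The share of all windows that hold any of these motifs was not computed. Capitals mark the match, and the sequence runs 5′ to 3′ along the gene.

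Per3, chr4:151044786-151044900, minus strand, D-boxes at positions -205 and -158 from the start: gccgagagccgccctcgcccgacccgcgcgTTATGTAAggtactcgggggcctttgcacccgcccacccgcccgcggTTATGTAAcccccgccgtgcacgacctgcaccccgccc
Tef, chr15:81802516-81802581, plus strand, E-box at position -127 from the first start: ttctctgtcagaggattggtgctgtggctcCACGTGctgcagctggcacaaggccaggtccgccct
Tef, chr15:81811246-81811311, plus strand, E-box at position -138 from the other start: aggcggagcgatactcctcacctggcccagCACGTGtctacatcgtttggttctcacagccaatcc
Nr1d1, chr11:98775378-98775435, minus strand, E-prime box on the opposite strand at position -28 from the start: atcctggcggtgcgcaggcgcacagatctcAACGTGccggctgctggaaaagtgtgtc
Nr1d2, chr14:18239148-18239213, minus strand, RORE core at position -77 from the start: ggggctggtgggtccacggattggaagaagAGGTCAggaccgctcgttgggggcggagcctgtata
Nfil3, chr13:52981040-52981081, minus strand, RORE core on the opposite strand at position -12 from the start: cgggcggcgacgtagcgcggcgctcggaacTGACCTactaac
Clock, chr5:76303586-76303651, minus strand, RORE core on the opposite strand at position -119 from the third of its starts: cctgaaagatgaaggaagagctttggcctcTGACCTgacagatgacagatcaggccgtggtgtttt

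Clock held a RORE core in 1 of its 3 windows, and no gene held the longer RORE. Dbp, Hlf and Npas2 held none of these letters within their windows. Among all 32851 promoter windows, the E-box was in 7.15%, the E-prime box in 4.68%, the D-box in 2.32%, the RORE core in 16.3% and the longer RORE in 2.46%. A match is a run of letters and was not shown here to be a binding site.

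The libraries held 18112901 to 19910236 counts and 24316 to 25003 detected genes. Counts were scaled to CPM, a measure of a gene's count relative to its library total, with edgeR's TMM factors, which ran from 0.973 to 1.02. Rab44 itself had 251 counts in normal WT, 1 in normal KO, 810 in OVA WT and 0 in OVA KO lungs, so both KO labels fit its counts. The log2 fold change (log2FC) was taken with a small prior count. Each range in parentheses is an exact 95% Clopper-Pearson interval of the count ratio, or an exact Poisson interval where it follows a CPM, and covers counting error only. With 1 library per group there is no replicate, so every difference is between libraries and has no p-value. These are whole lung RNA values, in which fewer cells of a type and less RNA per cell cannot be told apart.

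Dbp, the PAR bZIP factor first found on the albumin promoter, lies on chromosome 7 of GRCm38 from 45705088 to 45710203 (GENCODE M21). It had 254 CPM in normal WT (247 to 261), 263 in normal KO (256 to 271), 66.0 in OVA WT (62.4 to 69.7) and 3.80 in OVA KO lungs (2.98 to 4.77). The normal pair overlapped in its intervals, OVA WT stood below both, and OVA KO stood far below all others. In counts, the 4 libraries held 4881, 4802, 1278 and 74 reads in the same order. After OVA Dbp was 17.4-fold lower in KO than in WT lungs, a log2FC of -4.12 (-4.48 to -3.78). Against normal lungs of the same genotype it was 3.85-fold lower in WT and 69.2-fold lower in KO lungs. Among 13484 genes that reached 100 counts in 1 of the KO libraries, no other gene had a lower log2FC of OVA over normal than Dbp, at -6.11 (-6.47 to -5.78).

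Tef and Hlf encode the other PAR bZIP factors. Tef, on chromosome 15 from 81802421 to 81826863, had 480 CPM in normal WT, 509 in normal KO, 194 in OVA WT and 127 in OVA KO lungs. Hlf, on chromosome 11 from 90336536 to 90390895, had 89.0, 106, 29.7 and 24.1 CPM in the same order. Both genes were lower in the OVA libraries of both genotypes, and they differed much less between the genotypes than Dbp did. After OVA the log2FC of KO over WT was -0.61 (-0.69 to -0.54) for Tef and -0.30 (-0.48 to -0.13) for Hlf, although that of Hlf was 0.02 with TPM in place of counts. Compared with normal lungs, Tef was 2.47-fold lower in WT and 4.01-fold lower in KO lungs, and Hlf had a log2FC of -1.58 and -2.14.

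Between the OVA genotypes, the REV-ERB genes lay between Dbp and the other PAR bZIP genes in the size of their differences. Nr1d1, on chromosome 11 from 98767932 to 98775333, had 246 CPM in normal WT, 228 in normal KO, 115 in OVA WT and 33.2 in OVA KO lungs. Nr1d2, on chromosome 14 from 18204054 to 18239127, had 290, 311, 130 and 41.4 CPM in the same order. In both genes the levels stepped down from the normal pair to OVA WT and again to OVA KO, with no overlap of counting intervals at either step. After OVA Nr1d1 was 3.47-fold lower in KO than in WT lungs (log2FC -1.80, -1.92 to -1.67) and Nr1d2 3.13-fold lower (-1.65, -1.76 to -1.53). Compared with normal lungs, Nr1d1 was 2.13-fold lower in WT and 6.86-fold lower in KO lungs, and Nr1d2 2.24-fold and 7.51-fold lower.

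Per2 and Per3 encode PER proteins, of which PER2 is a repressor of CLOCK and BMAL1. Per3, on chromosome 4 from 151003652 to 151044665, had 143 CPM in normal WT, 174 in normal KO, 55.0 in OVA WT and 32.5 in OVA KO lungs. Like the PAR bZIP and REV-ERB genes, it was lowest in OVA KO and highest in the normal pair. Per2, on chromosome 1 from 91415982 to 91459324, had 99.1, 99.7, 34.4 and 45.6 CPM. Per2 was the output gene without this order, since it was higher in OVA KO than in OVA WT lungs, with a log2FC of 0.41 (0.26 to 0.55), whereas Per3 was lower, with -0.76 (-0.91 to -0.62). Both were over 2-fold lower in OVA than in normal lungs of either genotype, by a log2FC of -1.53 in WT and -1.13 in KO lungs for Per2, and of -1.38 and -2.42 for Per3.

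Npas2, the paralog of Clock that also pairs with BMAL1, lies on chromosome 1 from 39193731 to 39363236. Its counts were 23 in normal WT, 28 in normal KO, 122 in OVA WT and 380 in OVA KO lungs, or 1.20 CPM (0.759 to 1.80), 1.53 (1.02 to 2.22), 6.30 (5.23 to 7.52) and 19.5 (17.6 to 21.6). The normal pair overlapped at the bottom, and OVA WT and OVA KO followed above it, where Dbp had them below. Npas2 was 5.24-fold higher in OVA than in normal WT lungs, 12.7-fold higher in OVA than in normal KO lungs, and 3.09-fold higher in KO than in WT lungs after OVA (log2FC 1.63, 1.33 to 1.94). At the counts of the normal libraries a genotype difference was not detectable, since the interval of its log2FC there ran from -0.49 to 1.22.

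Nfil3, which encodes the D-box repressor and is also expressed in leukocytes, lies on chromosome 13 from 52967209 to 52981073. It had 2.92 CPM in normal WT, 3.95 in normal KO, 13.7 in OVA WT and 19.6 in OVA KO lungs. Compared with normal lungs it was 4.68-fold higher in WT and 4.97-fold higher in KO lungs, with intervals of the log2FC that overlapped (1.81 to 2.67 and 1.95 to 2.70). Its log2FC of KO over WT was 0.52 (0.29 to 0.75) after OVA and 0.43 (-0.09 to 0.97) under normal conditions.

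Clock, the partner of BMAL1, lies on chromosome 5 from 76209868 to 76304792. It had 54.0 CPM in normal WT, 55.4 in normal KO, 55.7 in OVA WT and 110 in OVA KO lungs. The 3 other libraries were within counting error of each other, and OVA KO alone stood apart, 1.97-fold above OVA WT (log2FC 0.98, 0.87 to 1.09). With TPM this log2FC was 1.30, and Clock then passed 2-fold, whereas it was 0.60 with the trend with gene length removed.

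**Figure D1:**
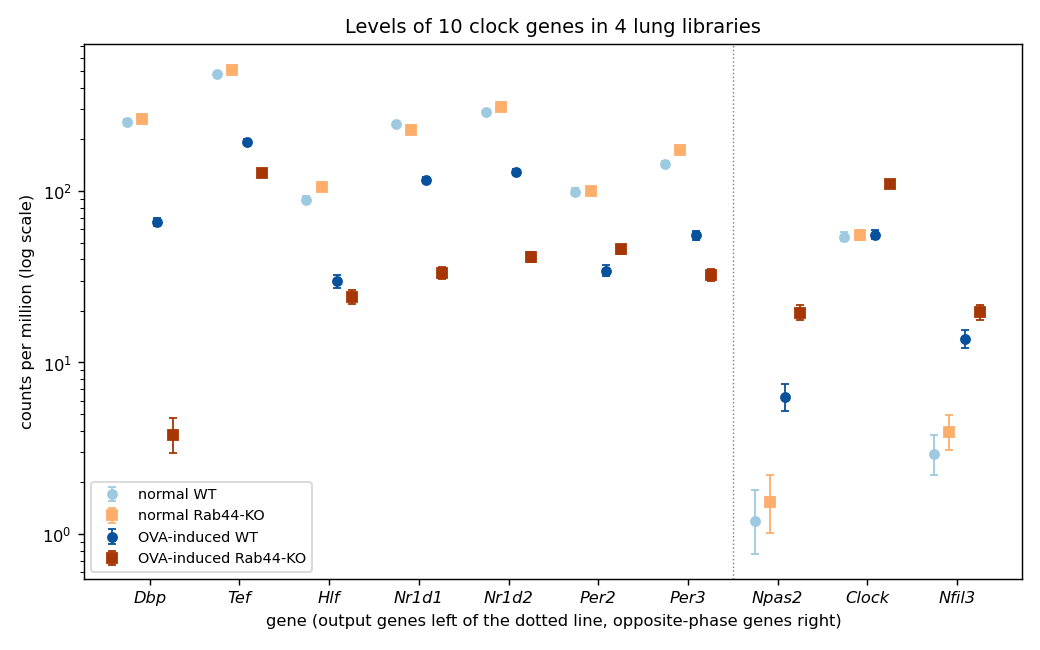
CPM (log axis) of the 10 clock genes in normal WT, normal KO, OVA WT and OVA KO lungs, 1 library each; bars are exact 95% Poisson intervals of the count. Dbp runs from 254 and 263 in the normal pair to 66.0 and 3.80 in the OVA pair, while Npas2 runs the other way, from 1.20 and 1.53 to 6.30 and 19.5.

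Per transcript length, on the TPM scale, Dbp was the most abundant of the 10 in the normal libraries, at 221 TPM in WT and 233 in KO lungs, and Npas2 the least, at 0.669 and 0.873 TPM. In OVA WT lungs the most abundant was Nr1d1 (81.5 TPM), and in OVA KO lungs it was Tef (48.0 TPM), with Dbp last of the 10 at 3.67 TPM. Among genes with at least 10 counts in a library, the TPM of Dbp stood at percentile 96.9 in normal WT, 97.2 in normal KO, 84.0 in OVA WT and 25.6 in OVA KO lungs. Npas2 stood at percentiles 6.96, 8.90, 26.5 and 47.8. Dbp thus passed from among the most abundant transcripts of normal lung to below Npas2 in OVA KO lungs.

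Ratios of counts within a library do not depend on the scaling between libraries. The ratio of Dbp to Npas2 counts was 212 (141 to 335) in normal WT, 172 (119 to 258) in normal KO, 10.5 (8.69 to 12.7) in OVA WT and 0.195 (0.150 to 0.250) in OVA KO lungs. Dbp to Nfil3 was 87.2, 66.7, 4.82 and 0.193 in the same order. Both ratios were above 1 in 3 libraries and below 1 in OVA KO lungs. With Npas2 as the common denominator, Nr1d1 went from 205 and 149 in the normal pair to 18.3 in OVA WT and 1.71 in OVA KO lungs, and Per3 from 120 and 113 to 8.74 and 1.67. The ratios that share Npas2 are not independent of each other.

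**Figure D2:**
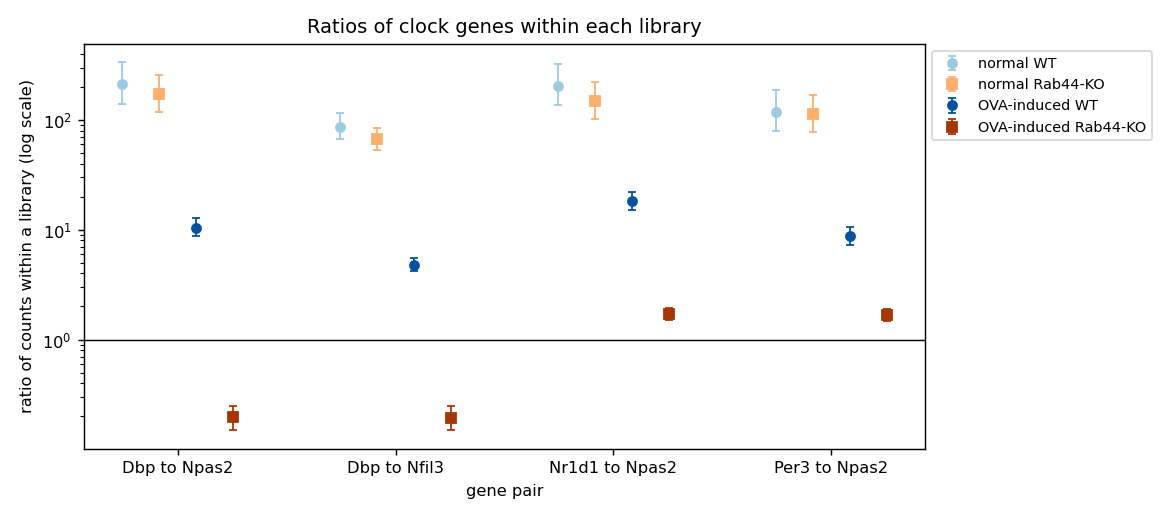
Ratio of the counts of a pair of clock genes within each of the 4 lung libraries (log axis), with exact 95% Clopper-Pearson intervals; the line marks equal counts. Dbp to Npas2 is 212 in normal WT and 0.195 in OVA KO lungs, and OVA WT lies between, at 10.5.

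Under normal conditions, none of the 10 genes differed over 2-fold between KO and WT lungs, where 2.77% of the 18718 genes that reached 10 counts exceeded 2-fold upward and 2% downward. The 7 output genes had log2FC from -0.11 to 0.28 with a median of 0.08, and the opposite-phase genes from 0.04 to 0.43 with a median of 0.36, against a median of 0.00429 over all genes tested. The opposite-phase median rested on the low counts of Npas2 and Nfil3, and was 0.24 at a minimum of 50 counts and 0.04 at a minimum of 100 counts, where Clock alone was left. Per3 (0.28, 0.20 to 0.35) and Hlf (0.25, 0.16 to 0.35) had the highest values among the output genes, and Nr1d1 was the only output gene with a negative value (-0.11, -0.17 to -0.05).

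After OVA, 3 of the 7 output genes, Dbp, Nr1d1 and Nr1d2, were over 2-fold lower in KO than in WT lungs and none over 2-fold higher, and 1 of the 3 opposite-phase genes, Npas2, was over 2-fold higher. In this comparison 7.34% of 19259 genes passed 2-fold downward and 8.40% upward. On TPM, which moved the median over all genes in this comparison to 0.29, the split over all genes was 2602 higher and 777 lower, in place of 1617 and 1413. The median log2FC was -0.76 for the output genes and 0.98 for the opposite-phase genes, against -0.02 over all genes. Relative to the shift of all genes, the output median on TPM, -0.43, was still on the low side. Clock passed 2-fold here with total counts (1.05) as well as on TPM, and Per3 did with the trend with gene length removed (-1.07).

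In WT lungs, all 7 output genes were over 2-fold lower in OVA than in normal libraries, with a median log2FC of -1.38 and a range of -1.95 to -1.09, where 5.20% of 19023 genes were over 2-fold lower. Of the opposite-phase genes, Npas2 and Nfil3 were over 2-fold higher, where 8.99% of genes were, and Clock had a log2FC of 0.04 (-0.08 to 0.17), which was -0.13 on TPM. In KO lungs, all 7 output genes were again over 2-fold lower, with a median of -2.42 and a range of -6.11 to -1.13, where 3.85% of 19073 genes were. Npas2 and Nfil3 were over 2-fold higher, where 6.44% of genes were, and Clock had 0.99 (0.88 to 1.10). Over all genes, 1229 were over 2-fold higher and 734 lower here, or 1287 and 481 on TPM. Some calls lay close to 2-fold, since Nr1d2 in WT lungs had -0.96 with the trend with gene length removed, Per2 in KO lungs had -0.999 on TPM, and Clock in KO lungs had 1.11 on TPM. These comparisons share the OVA and normal libraries with those between genotypes, so the 4 sets of values are not independent of each other.

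**Figure D3:**
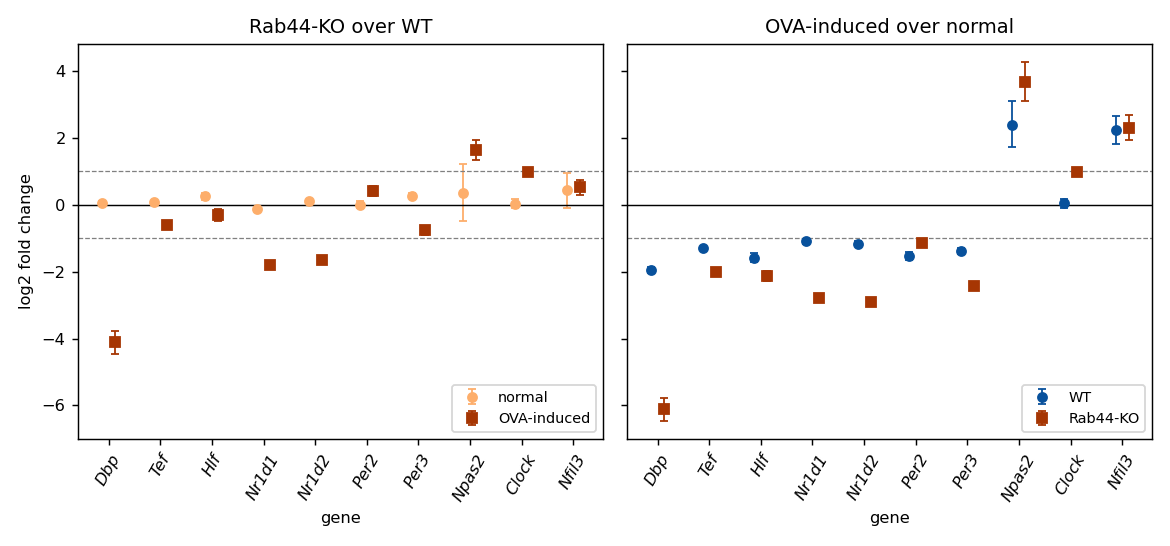
Log2 fold changes of the 10 clock genes, KO over WT in normal and OVA lungs (left) and OVA over normal in WT and KO lungs (right), 1 library per group; bars are 95% counting intervals and dashed lines mark 2-fold. The normal genotype values lie between -0.11 and 0.43, while Dbp reaches -4.12 between genotypes after OVA and -6.11 between OVA and normal KO lungs.

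**Figure D4:**
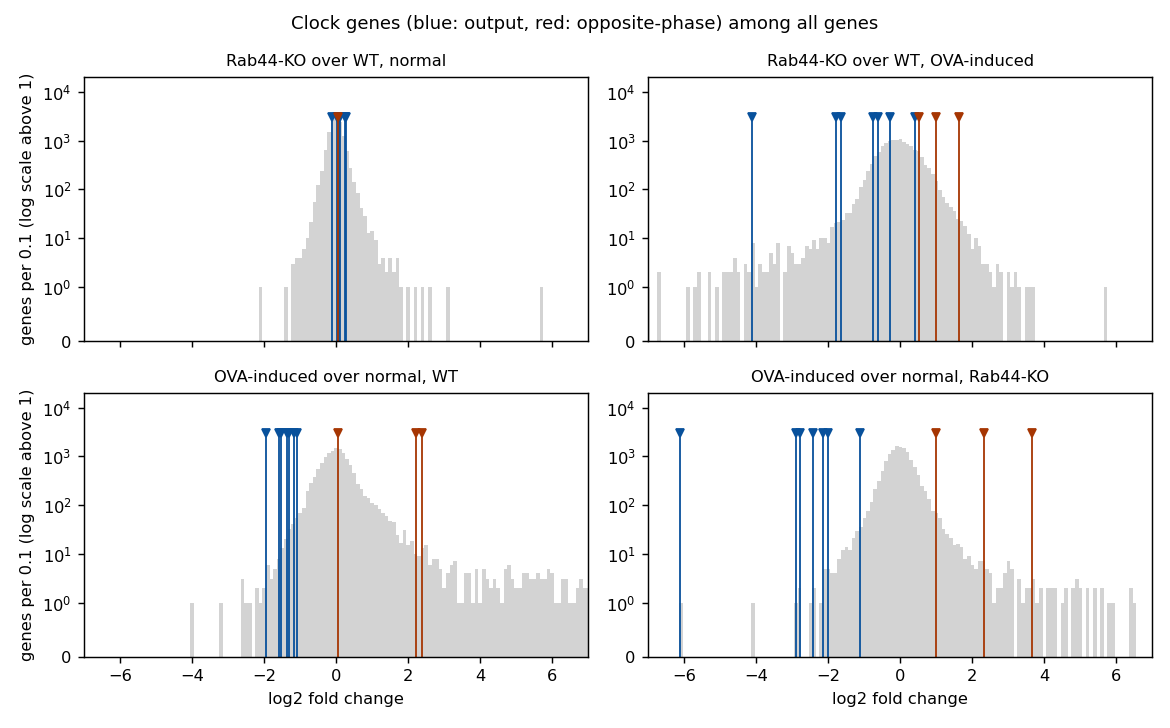
Distribution of log2 fold changes over all genes that reach 100 counts in a compared library (grey, number of genes per 0.1, log scale above 1, drawn from -7 to 7), with the output genes (blue) and opposite-phase genes (red) that reach this minimum marked by lines. The lines cluster near 0 in normal KO over WT, where Npas2 and Nfil3 are under the minimum, and spread to both sides in the other 3 comparisons.

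The loops were then taken as whole gene lists, which also hold members chosen by their levels in these libraries. The positive limb holds Bmal1, Bmal2, Clock and Npas2. Bmal1, the partner of CLOCK and NPAS2, had 3.07 CPM in normal WT, 3.40 in normal KO, 16.1 in OVA WT and 45.7 in OVA KO lungs, the same order as Npas2. It was 2.84-fold higher in OVA KO than in OVA WT, while its log2FC between the normal genotypes was 0.14 (-0.39 to 0.68). Bmal2 had 23 to 55 counts per library, and its log2FC of OVA over normal was -1.27 in WT and -0.38 in KO lungs. Apart from the members Clock and Npas2, Bmal1 was over 2-fold higher in OVA than in normal lungs of either genotype and Bmal2 was not. Over all genes, 8.99% were in WT and 6.44% in KO lungs.

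The negative limb holds 8 genes, Per1, Per2, Per3, Cry1, Cry2, Ciart, Bhlhe40 and Bhlhe41, all repressors or, for Ciart, a partner of repression at CLOCK and BMAL1. Per2 and Per3 among them are members, chosen by these same values. Apart from these, only Ciart was over 2-fold lower in OVA than in normal WT lungs, and only Ciart and Bhlhe41 in KO lungs. Over all genes, 5.20% were in WT and 3.85% in KO lungs. With the members, the medians of the list were -0.64 and -0.92. The 8 genes did not share a direction between the genotypes. After OVA Cry1 was over 2-fold higher in KO lungs, at 45.5 against 20.03 CPM (log2FC 1.18, 1.01 to 1.36), while Bhlhe40, at 50.2 against 120 CPM (-1.25, -1.36 to -1.14), and Bhlhe41, at 22.8 against 48.5 CPM (-1.09, -1.25 to -0.92), were over 2-fold lower. Per1 had 178, 215, 121 and 184 CPM in the order of normal WT, normal KO, OVA WT and OVA KO, a narrower range than any of the 7 output genes showed. Ciart had 33.1, 32.1, 13.3 and 10.5 CPM, and Cry2 100.7, 97.8, 64.6 and 71.8 CPM.

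In the RORE loop, Rora and Rorb encode activators that compete with REV-ERB. Rora had 80.4, 87.8, 48.3 and 87.8 CPM in the same order of libraries, so it was lowest in OVA WT lungs. Its log2FC of KO over WT after OVA was 0.86 (0.75 to 0.98), short of 2-fold. Rorb had at most 22 counts, with 8 in OVA KO against 22 in OVA WT. Of the 9 genes listed for clock protein turnover, among them the kinases Csnk1d and Csnk1e, none was over 2-fold different in any of the 4 comparisons, and their medians ran from -0.20 to 0.16.

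**Figure D5:**
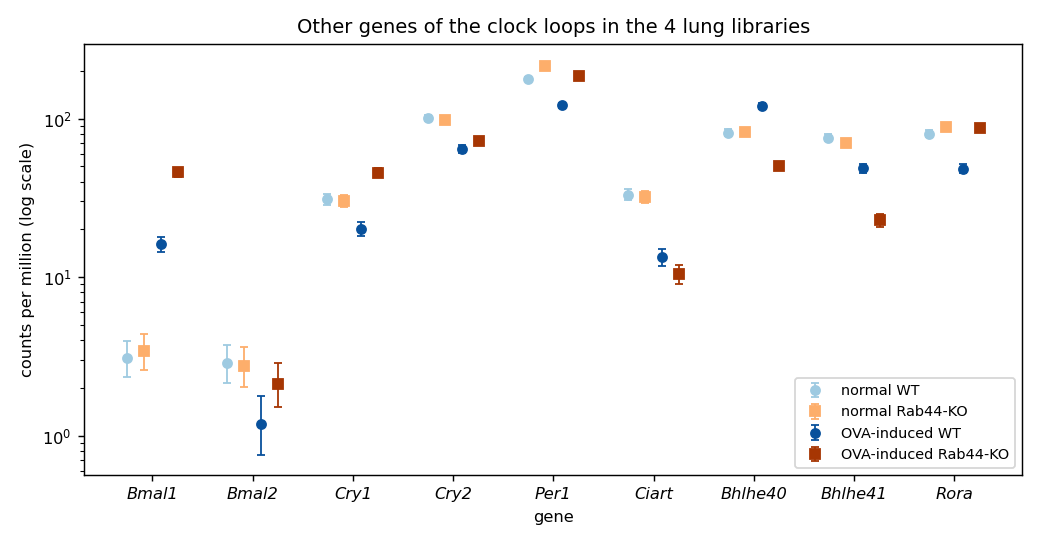
CPM (log axis) of 9 further genes of the clock loops in the 4 lung libraries, with exact 95% Poisson intervals. Bmal1 runs from 3.07 and 3.40 in the normal pair to 16.1 and 45.7 in the OVA pair, whereas Per1 stays between 121 and 215.

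Genes known to follow the clock in several tissues were less uniform. Of 8 on this list, 2, Usp2 and Wee1, were over 2-fold lower in OVA than in normal WT lungs. In KO lungs 4 were, the same genes and Tspan4 and Coq10b. Over all genes, 5.20% were in WT and 3.85% in KO lungs. The medians of the list were -0.30 and -0.50. Usp2, a deubiquitinase, had 25.9, 31.0, 9.86 and 13.1 CPM, and Wee1, a kinase that restrains entry into mitosis, had 32.3, 35.7, 15.5 and 15.8 CPM. Tspan4, a tetraspanin, had 135, 129, 69.3 and 33.2 CPM, and was over 2-fold lower in KO than in WT lungs after OVA (log2FC -1.06, -1.20 to -0.92). Coq10b had 45.2, 43.1, 31.8 and 19.1 CPM. Cdkn1a, a cell cycle inhibitor, went the other way, with 22.8, 30.9, 83.1 and 319 CPM.

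Of 5 genes known as targets of the PAR bZIP factors, 1 was over 2-fold lower in OVA than in normal lungs of either genotype. Over all genes, 5.20% were in WT and 3.85% in KO lungs. Of the 5 listed, Por and Alas1, which supply electrons and heme to cytochromes P450, had log2FC of OVA over normal of -0.53 and -0.56 in WT and -0.83 and -0.90 in KO lungs. Cyp2a5, which has a near-identical paralog that can share its reads, was over 2-fold lower in both, with 121 CPM in normal WT, 135 in normal KO, 20.8 in OVA WT and 49.0 in OVA KO lungs, and so was higher in KO than in WT lungs after OVA (1.24, 1.07 to 1.41), in the direction opposite to Dbp. Between the genotypes after OVA the list had a median of -0.10, with 1 gene over 2-fold higher and none over 2-fold lower. Over all genes, 8.40% were higher and 7.34% lower.

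Glucocorticoids, body temperature and acute stimulation are known to act on clock genes, so genes that respond to each were counted beside the members. Of 10 glucocorticoid-responsive genes, 3 were over 2-fold higher in KO than in WT lungs after OVA and 1 over 2-fold lower. Over all genes, 8.40% were higher and 7.34% lower. The median of the list was 0.68. Under normal conditions none was over 2-fold different and the median was 0.45. Those higher were Pdk4, at 104 against 23.0 CPM (log2FC 2.18), Cdkn1a (1.94) and Dusp1, at 681 against 201 CPM (1.76), and the lower was Zbtb16, at 34.0 against 71.7 CPM (-1.08). Compared with normal lungs, 3 of the list were over 2-fold higher after OVA in each genotype. These were Sgk1 (1.21 in WT and 1.37 in KO), Pdk4 (1.06 and 2.75) and Cdkn1a (1.87 and 3.37). Over all genes, 8.99% were in WT and 6.44% in KO lungs. Zbtb16 was over 2-fold lower in KO lungs (-1.96), where 3.85% of all genes were. Cdkn1a is also on the list of genes known to follow the clock, and Dusp1 on that of immediate-early genes. Per1, also on the glucocorticoid-responsive list, stayed within 2-fold, with a log2FC of KO over WT after OVA of 0.61 (0.53 to 0.68). The part of glucocorticoids in the values of the clock genes was not tested.

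Of 5 immediate-early genes, 3 were over 2-fold higher in KO than in WT lungs after OVA, Fos (1.75), Egr1 (2.82-fold) and Dusp1, where 8.40% of all genes were, with a median log2FC of 1.496. Under normal conditions, where the clock genes were within 2-fold, Fos was over 2-fold higher in KO lungs (1.32) and the median was 0.91. In WT lungs, Fos (-1.36) and Egr1 (-1.05) were over 2-fold lower in OVA than in normal libraries. Of 6 temperature-sensitive genes, none was over 2-fold different between the OVA genotypes, where 8.40% of all genes were higher and 7.34% lower. Their log2FC ran from -0.88 for the cold-inducible Rbm3 (-0.96 to -0.79) to 0.57 for Hsph1 (0.47 to 0.66). Hspa1a and Hspa1b are inducible HSP70 paralogs whose reads can be shared. Both were over 2-fold higher in normal KO than in normal WT lungs (1.62 and 1.80), where 2.77% of all genes were. In KO lungs 3 of the list were over 2-fold lower after OVA, Hspa1a, Hspa1b and Rbm3, at -1.42, -1.28 and -1.16. Hsph1 was over 2-fold higher there (1.40). Over all genes in KO lungs, 3.85% were lower and 6.44% higher. The part of these responses in the values of the clock genes was not tested.

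Marker genes of lung cell types also differed between the libraries. Summed over 3 leukocyte genes, the level was 308 and 328 CPM in the normal pair, 740 in OVA WT and 510 in OVA KO lungs. All 5 neutrophil genes were over 2-fold higher after OVA in both genotypes, from 97.1 and 123 CPM to 530 and 660 CPM. The libraries were in the same order by these summed neutrophil genes as by Npas2, Bmal1 and Nfil3, but also as by Cdkn1a and Eln. Retnlg, 1 of the 5 neutrophil genes, was however lower in OVA KO (103 CPM) than in OVA WT lungs (136 CPM). T cell (79.7 against 34.9 CPM), plasma cell (1121 against 459 CPM) and eosinophil genes (59.9 against 18.2 CPM) were higher in OVA WT than in OVA KO lungs. Among the eosinophil genes, the peroxidase Epx was at 0 counts in all libraries but OVA WT, where it had 1.

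Endothelial genes summed to 1997 to 2418 CPM, fibroblast genes to 1147 to 1252 CPM, smooth muscle genes to 734 to 880 CPM and ciliated cell genes to 180 to 263 CPM. Club cell genes summed to 25767 and 26190 CPM in the normal pair and to 17999 and 20895 CPM in the OVA pair, and alveolar type 1 genes to 3114, 2711, 2531 and 1895 CPM, although Rtkn2 among them was highest in OVA KO lungs (320 CPM). Summed alveolar type 2 genes were highest in OVA WT (27108 CPM) and lowest in OVA KO lungs (15572 CPM), a sum carried mostly by Sftpc, and Sftpc was the only 1 of the 4 that was lowest in OVA KO lungs. Summed heart muscle genes, which are expressed in the heart and in pulmonary veins, were lowest in OVA WT lungs, at 258 CPM against 567 to 634 CPM in the others, and 3 of the 4 were over 2-fold higher in OVA KO than in OVA WT. The exception, Actc1, was lowest in OVA KO (84.8 CPM against 98.7 in OVA WT). The part of cell composition in the values of the clock genes was not tested.

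Profiles over the 4 libraries were then compared between genes, as log2 CPM centered on each gene's mean, among 13889 other genes with at least 100 counts in the highest library. The 5 nearest to the mean profile of the output genes were Apln, Prkag3, Tspan4, Lum and Gsg1l, at Euclidean distances of 0.569 to 0.733, whereas the output genes themselves lay 0.281 to 2.79 from their mean. Apln, the ligand apelin, had 1308, 1274, 619 and 323 counts in normal WT, normal KO, OVA WT and OVA KO lungs. The 5 nearest to the mean profile of the opposite-phase genes were Gm38525, Csrnp1, Eln, Csf3r and Mmp9, at distances of 0.117 to 0.332, nearer than the 3 members themselves (0.510 to 1.43). Csrnp1, a nuclear protein gene, had 498, 649, 1387 and 3232 counts, Eln, which encodes elastin, 2155, 2433, 7000 and 10854 counts, and Csf3r, a receptor of neutrophils and among the neutrophil markers, 457, 500, 1666 and 2640 counts. Profiles of 4 points leave many genes alike, and likeness here is a description.

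Some counts may be shared with neighbors. In GENCODE M21, exons of Dbp overlap those of Sphk2 on the opposite strand over 18% of the exonic bases of Dbp, exons of Nr1d1 overlap Thra over 8.55% and those of Tef overlap Gm17597 over 2.45%. Sphk2 had 117, 107, 67.3 and 37.9 CPM and Thra 259, 225, 182 and 180 CPM in the same order of libraries. Both varied less than Dbp and Nr1d1, and although the library kit was directional, the strand setting of the counting is not given, so reads of such pairs cannot be told apart with certainty. No 100-base window of Hlf, Per2, Per3, Npas2, Clock or Nfil3 occurred in a transcript of another gene.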

How the data were processed

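Whole lung RNA of 4 mouse libraries was analyzed, grouped by their labels. HISAT2 alignment of paired-end reads to GRCm38 and featureCounts gave the authors raw counts per gene, deposited as whole numbers. TPM values were deposited beside them and have an equal sum in every library. The library kit was a directional one, which keeps the strand, but the strand setting used in counting and the versions of these tools are not given in the sources used here. Only 0.879% of 27522 genes in the deposited table start where GENCODE M21 (GRCm38) places them, none of the 10 clock genes does, and Nr1d2 is on the other strand, so positions were taken from GENCODE M21 and no coordinates were converted. The members and lists were chosen with earlier results of these data known.

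Counts were scaled by TMM in edgeR 4.0.16 (R 4.3.3) over the 4 libraries, and log2FC used a prior count of 0.125. A gene entered a comparison if its higher library held 10 counts or more, and a log2FC past 1 in size is called over 2-fold. No p-value was computed. Steps were tested on simulated data. Named genes were the members, list genes over 2-fold in a comparison with at least 100 counts, and the 5 nearest profiles per group. Other genes were named to complete their lists after their values were seen, and some list genes are not reported here. Alternatives used DESeq2 1.42.0 size factors, total counts, TMM on the 2 compared libraries or without immunoglobulin genes, log2 TPM with a pseudocount of 0.1, a prior count of 2, removal of the trend with gene length, thinned counts, other count minimums and other thresholds. Python 3.11.15, numpy 2.4.6, pandas 2.3.3 and matplotlib 3.10.9 were used for sequences and figures. The depth of 18112901 to 19910236 counts leaves genes such as Npas2 in normal lungs with wide counting intervals.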

Additional observations from a re-analysis of the deposited data

Results flagged for a closer look

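Differences of Rab44-KO over WT had opposite signs under normal and OVA-induced conditions in Dbp, Tef, Hlf, Nr1d2 and Per3. The same held for 4 other named genes that were over 2-fold different under either condition. The share of all genes with opposite signs was not computed, so this is a list and not a result about the members. Marker genes were not examined in this way. With 1 library per group, the difference between the conditions was not tested. For Dbp the log2FC was 0.05 under normal and -4.12 under OVA-induced conditions, a difference of -4.17. The differences were -1.75 for Nr1d2 (0.10 and -1.65), -1.04 for Per3 (0.28 and -0.76), -0.70 for Tef (0.08 and -0.61) and -0.56 for Hlf (0.25 and -0.30, the latter 0.02 on TPM). Outside the members, they were -2.38 for Gsg1l (0.47 and -1.91), -1.89 for Zbtb16 (0.81 and -1.08), -1.26 for Bhlhe40 (0.01 and -1.25) and 1.23 for Cry1 (-0.04 and 1.18). The normal values of Dbp, Bhlhe40 and Cry1 had counting intervals that included 0.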

How the results depend on the processing

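No paired analysis was possible because each group has 1 library and the labels give no replicate numbers, and no library could be left out for the same reason. Of 724 alternative values, 629 stayed within the counting interval or within 1.5 times the count, 95 moved and none of the called values reversed. Among 40 member values, 4 changed sign under some setting, all within 2-fold: Per2 and Clock between the normal genotypes, Hlf between the OVA-induced genotypes and Clock between OVA-induced and normal WT lungs. The log2FC of Dbp between the OVA-induced genotypes ran from -4.13 to -3.76. On TPM the output medians were -0.43 between the OVA-induced genotypes, -1.55 for OVA-induced over normal in WT and -2.28 in Rab44-KO lungs, the opposite-phase median between the OVA-induced genotypes was 1.30, and 2 opposite-phase genes were over 2-fold higher there. TPM moved the median over all genes to 0.29, -0.16 and 0.11 in these 3 comparisons. With the trend with gene length removed, the output medians were 0.042 and -1.07 between the normal and the OVA-induced genotypes and -1.18 for OVA-induced over normal in WT lungs, and the opposite-phase median between the OVA-induced genotypes was 0.60. Between the OVA-induced genotypes, total counts alone put 2 opposite-phase genes over 2-fold higher, and a 1.5-fold threshold put 5 output genes lower and 2 opposite-phase genes higher, where 3397 of 19259 genes were lower and 3489 higher. Over all genes, the counts past the threshold moved by over 1.5 times with other count minimums, with other thresholds and in part with TPM: against 1617 higher and 1413 lower between the OVA genotypes, the alternatives gave 412 to 4404 and 532 to 3552, against 519 and 374 between the normal genotypes 44 to 3068 and 11 to 2521, against 1710 and 989 after OVA in WT lungs 786 to 4219 and 200 to 3325, and against 1229 and 734 in KO lungs 324 to 3937 and 147 to 3136. TPM gave 2602 and 777 between the OVA genotypes and 481 lower after OVA in KO lungs. The cause was not tested. The 5 nearest profiles stayed the same with DESeq2 size factors, and on TPM all 5 output-like and 4 opposite-phase-like genes were shared. Low counts of Npas2 and Nfil3 in normal lungs limit what can be said of the genotypes there.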
